A study of Homo sapiens with 12 samples.

Results

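The EGR, NR4A and KLF early response factors are described here by their RNA levels in HK2 cells, an immortalised cell line of the human renal proximal tubule. They are 10 genes of the 62703 gene identifiers measured: EGR1, EGR2, EGR3, NR4A1, NR4A2, NR4A3, KLF2, KLF4, KLF6 and KLF10. The genes were selected on their levels in these same libraries, in which most of them were highest in NG, so their levels and changes are given as a description, with no p-value, and counts of them past a threshold support nothing. The 12 RNA libraries form 4 groups of 3. NG cells received a control vector and were kept in 5.5 mM glucose. The si-FGF9 cells received a small interfering RNA against FGF9, a secreted fibroblast growth factor, in 5.5 mM glucose, and no non-targeting siRNA is described for them. HG cells were kept in 50 mM glucose, and the labels name no vector for them. HG+OE-FGF9 cells were kept in 50 mM glucose and received a lentiviral vector that overexpresses FGF9. The results text of the study describes the NG medium as one with mannitol and the FGF9 vector as adenoviral. Its methods name no mannitol and give a lentiviral vector. Nothing in the labels says that the 3 libraries of a group came from separate cultures, so that their spread may be technical.

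The EGR and NR4A genes and some KLF genes are early response genes. Their transcription starts within minutes of a growth factor, serum or stress signal without the need for new protein. Their short-lived mRNA is soon lost again. The EGR proteins are zinc finger activators that bind GC-rich elements downstream of ERK signalling and serum response factor (SRF). The NR4A proteins are orphan nuclear receptors regulated by their own abundance rather than by a hormone, and the KLF proteins are zinc finger factors of GC-rich promoters that take part in growth control, endothelial quiescence and transforming growth factor signalling.

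The promoters of EGR1 and EGR2 are shown because EGR1 had the largest change of the 10 genes and because CArG boxes, the DNA element that SRF binds, are the textbook route by which these genes are switched on. The sequences are from RefSeq on GRCh38.p14, 5′ to 3′ on the strand of the gene, and capitals mark the CArG boxes. Each run ends at the base before the annotated start of transcription. The EGR1 run is chr5:138465229-138465478 on the plus strand, and the EGR2 run is chr10:62816367-62816616 on the minus strand.
EGR1: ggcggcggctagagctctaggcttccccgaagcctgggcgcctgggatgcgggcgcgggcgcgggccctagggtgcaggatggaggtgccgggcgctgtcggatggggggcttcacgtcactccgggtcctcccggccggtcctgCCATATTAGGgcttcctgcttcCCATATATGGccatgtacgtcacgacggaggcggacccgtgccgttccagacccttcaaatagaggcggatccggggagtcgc
EGR2: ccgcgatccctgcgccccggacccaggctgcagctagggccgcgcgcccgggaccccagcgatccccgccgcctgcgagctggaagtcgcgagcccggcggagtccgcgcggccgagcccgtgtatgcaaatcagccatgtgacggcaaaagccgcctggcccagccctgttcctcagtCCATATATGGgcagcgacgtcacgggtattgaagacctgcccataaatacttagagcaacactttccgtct
In EGR1, the boxes CCATATTAGG and CCATATATGG begin 105 and 83 bases before the start. In EGR2, the box CCATATATGG begins 71 bases before the start, and the 2 other annotated EGR2 windows hold no CArG box. Of 35116 promoter windows of this length, 407 (1.16%) held a CArG box on either strand.

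The same windows were searched on both strands for 5 further elements. The EGR element GCGNGGGCG, which overlaps the GC box GGGCGG in some windows, was found in EGR1, KLF2, KLF4 and KLF6, and in 8.42% of all windows. The ETS core CCGGAA was found in NR4A1 and in 14.5% of all windows. The cAMP response element TGACGTCA and the NGFI-B response element AAAGGTCA, to which NR4A proteins bind, were found in none of the windows searched for these genes, and in 1.65% and 1.05% of all windows. EGR3, KLF10 and NR4A2 had no window in this search. The GC box was found in EGR2, KLF2, KLF4, KLF6 and NR4A1 and in 42.6% of all windows. These matches describe the letters in the windows only.

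Several facts of the libraries touch every result. The values are TPM, shares of all transcripts that are corrected for transcript length and sum to the same total in each library, so that depth is unknown and a fall of a gene is a fall in its share of the RNA. Between 11549 and 13949 genes per library reached a TPM of 1. FGF9 was listed at 0 in all 9 libraries of NG, HG and si-FGF9, so its knockdown cannot be seen in these values, and it was at 3.34, 4.03 and 3.82 TPM in HG+OE-FGF9. HG replicate 3 was nearer to NG replicate 3 (median absolute difference 0.34 on the log2 scale) than to HG replicates 1 and 2 (0.36 and 0.54). HG+OE-FGF9 replicate 3 was nearer to HG replicate 1 (0.23) than to its own replicates, and HG replicate 1 was nearer to it than to HG replicate 2 (0.27). HG+OE-FGF9 replicates 1 and 2 differed by 0.050, against 0.34 from replicate 3, NG replicates 2 and 3 differed by 0.065 and si-FGF9 replicates 1 and 2 by 0.11. Without depth, sampling noise cannot be set for these pairs, so they were kept as separate libraries and averaged in an alternative. Of 14 proximal tubule markers, 2 reached a TPM of 1 in all libraries (GGT1 and PAX8), 8 stayed under 1 in all, and 1 was at 0 in all. Of 6 epithelial markers 5 reached 1 in all libraries. The 4 endothelial markers stayed under 1, and 1 of 5 leukocyte markers, CD68, and 2 of 5 fibroblast markers, LUM and COL1A1, reached 1 in all libraries. The proximal tubule markers summed to 155 to 167 TPM in NG, 165 to 204 in HG, 219 to 240 in si-FGF9 and 110 to 124 in HG+OE-FGF9. These sums hide opposite directions, since GGT1 was at 71.65 to 83.76 TPM in NG and 174.91 to 195.31 TPM in si-FGF9, while PAX8 was at 78.07 to 79.06 TPM in NG and 35.91 to 41.62 TPM in si-FGF9. In such bulk RNA, fewer cells of a type and less RNA per cell cannot be told apart.

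EGR1, the founding EGR factor, was among the more abundant RNAs of NG and near or under 1 TPM elsewhere. Its level was 130.39, 133.53 and 132.71 TPM in NG, a rank of 851 to 890 among all identifiers. It was 0.74, 0.85 and 0.25 TPM in HG and 0.13, 0.19 and 0.66 TPM in si-FGF9. In HG+OE-FGF9 it was 1.18, 1.19 and 1.18 TPM. NG lay above every other library, and the HG+OE-FGF9 libraries lay above all HG libraries while remaining near 1 TPM, at ranks of 12402 to 12742. The mean of NG was 216 times that of HG, 405 times that of si-FGF9 and 112 times that of HG+OE-FGF9. The multiple for si-FGF9 rested on replicate 3, without which it was 826. All HG and si-FGF9 values of EGR1 lay under 1 TPM, where the counting error is unknown.

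EGR2, known from Schwann cell and lymphocyte biology, was low throughout. It was at 1.31, 1.31 and 1.00 TPM in NG, at 0.75, 0.46 and 0.69 TPM in HG, at 0, 0.05 and 0.06 TPM in si-FGF9 and at 0.22, 0.24 and 0.73 TPM in HG+OE-FGF9. The si-FGF9 libraries were the lowest and did not overlap with any other group, while HG and HG+OE-FGF9 overlapped. EGR3, a related factor of muscle spindles and T cells, was at 0.28, 0.20 and 0.18 TPM in NG and at 0.13 TPM or below in the 9 other libraries, and so stayed under 1 TPM in every library.

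NR4A1, also called NUR77, was the most abundant NR4A gene. It was at 8.26, 8.61 and 8.75 TPM in NG, at 2.11, 2.16 and 6.06 TPM in HG, at 3.40, 3.02 and 2.98 TPM in si-FGF9 and at 6.17, 6.54 and 6.17 TPM in HG+OE-FGF9. The HG libraries were split, with replicate 3 close to the HG+OE-FGF9 level and the other two below the si-FGF9 libraries. HG and si-FGF9 overlapped, and HG+OE-FGF9 lay between them and NG without overlap. NR4A2, a factor of dopaminergic neurons, was at 1.32, 0.92 and 0.62 TPM in NG and at 0.48 TPM or below elsewhere. NR4A3 was at 0.33 to 0.35 TPM in NG and at 0.23 TPM or below elsewhere. The 3 other groups overlapped one another for NR4A2 and NR4A3.

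KLF10 and KLF6 had NG levels like that of EGR1 but kept a part of them in the other groups. KLF10, an early target of transforming growth factor signalling, was at 146.54, 142.18 and 138.35 TPM in NG and at 37.51, 24.53 and 72.07 TPM in HG. It was at 32.07, 35.45 and 20.88 TPM in si-FGF9 and at 35.03, 35.33 and 47.27 TPM in HG+OE-FGF9. KLF6, a growth-restraining factor first described in liver injury, was at 130.94, 120.69 and 107.32 TPM in NG and at 20.42, 11.05 and 51.88 TPM in HG. It was at 22.40, 25.23 and 10.46 TPM in si-FGF9 and at 9.20, 9.17 and 17.87 TPM in HG+OE-FGF9. For both genes NG lay above all other libraries, HG replicate 3 was the highest outside NG, and HG, si-FGF9 and HG+OE-FGF9 overlapped as neighbours in the order of their means.

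KLF4, a pluripotency and epithelial differentiation factor, was at 40.90, 27.92 and 23.83 TPM in NG and at 8.02, 4.82 and 9.91 TPM in HG. It was at 6.76, 8.83 and 4.85 TPM in si-FGF9 and at 13.32, 13.30 and 15.22 TPM in HG+OE-FGF9. Its order was NG, then HG+OE-FGF9, then HG and si-FGF9, which overlapped. KLF2, a flow-induced factor of endothelium, did not share the NG maximum. It was at 2.28, 1.86 and 3.49 TPM in NG, at 1.25, 2.38 and 1.84 TPM in HG, at 0.97, 0.99 and 1.41 TPM in si-FGF9 and at 3.84, 4.42 and 2.52 TPM in HG+OE-FGF9. Every neighbouring pair of groups overlapped for KLF2. The 4 endothelial markers summed to 0 to 0.02 TPM in NG, 0.01 to 0.10 in HG, 0.01 to 0.03 in si-FGF9 and 0.03 to 0.15 in HG+OE-FGF9, and their part in the KLF2 values was not tested.

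**Figure D1:**
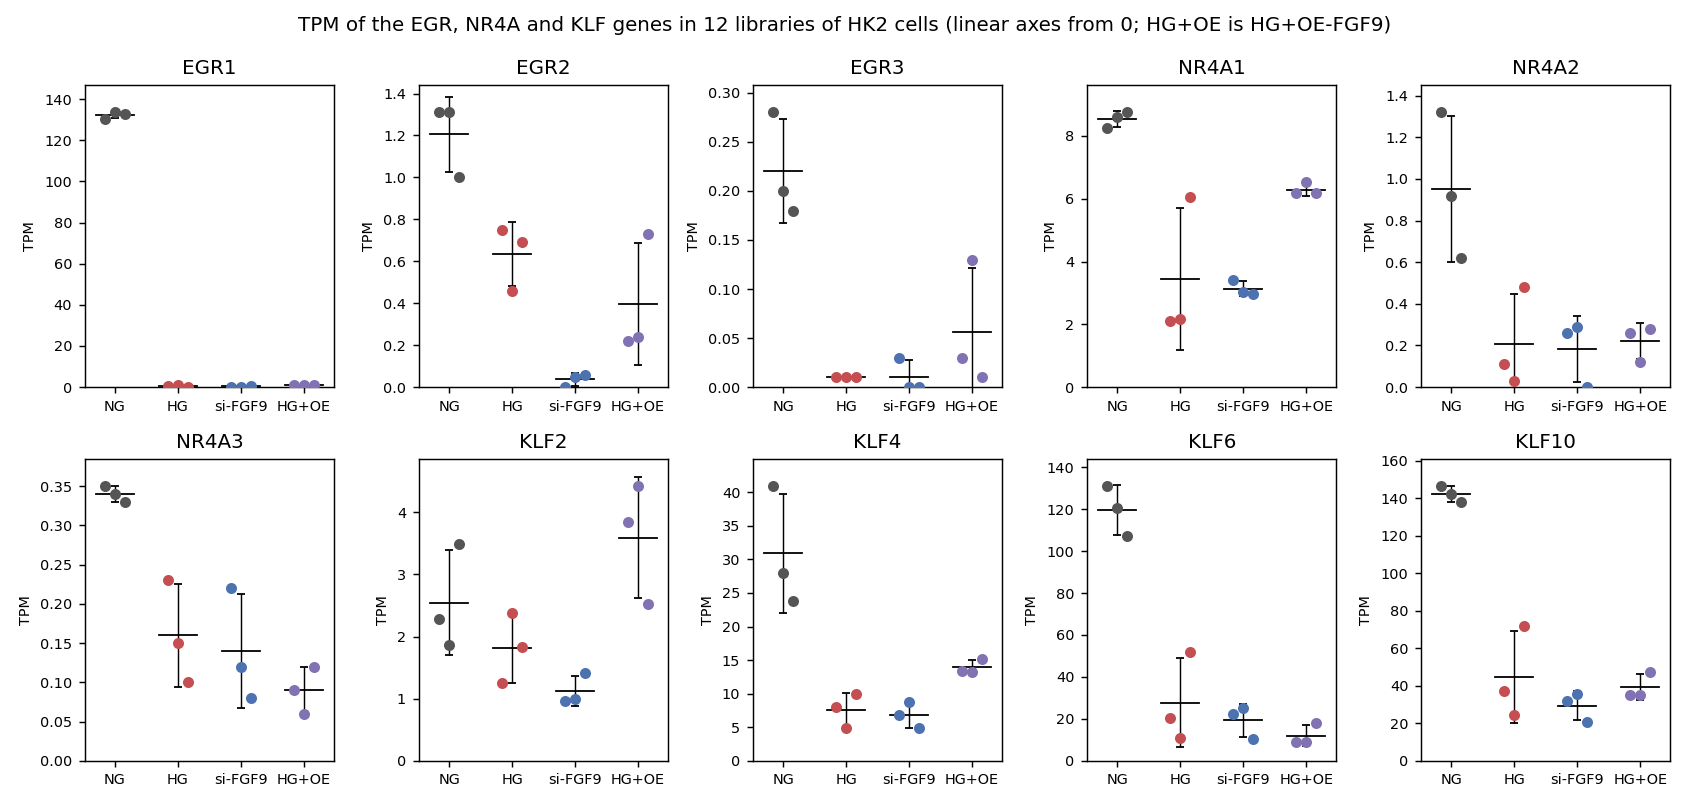
TPM of each of the 10 genes (y axis, linear from 0, own scale per gene) in each of the 4 groups (x axis). Points are libraries, and the lines and bars are the mean and SD of 3 libraries. In 9 genes all NG libraries lie above all others, and KLF2 is the exception.

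In 9 of the 10 genes the 3 NG libraries lay above all 9 other libraries. Of the 7 genes that reached the TPM minimum for fold changes given below, this was so for 6, beside 41.9% of all 14639 genes that reached it. Summed over the 10 genes, TPM was 417 to 463 in NG, 46.4 to 143 in HG, 41.4 to 74.2 in si-FGF9 and 69.3 to 91.4 in HG+OE-FGF9. In HG, replicate 3 was the highest library for 5 of the 10 genes (NR4A1, NR4A2, KLF4, KLF6 and KLF10) and the lowest for EGR1 and NR4A3.

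Fold changes were computed with limma on log2(TPM + 1) for genes whose TPM reached 1 in at least 3 libraries. EGR3, NR4A2 and NR4A3 did not reach this minimum, and EGR2 reached it through NG alone, so that a difference was built into its selection. Log2 fold changes on this scale understate the changes of low genes. A gene was called changed when its log2 fold change was 1 or more, up or down, and its unadjusted p was under 0.01, the criteria of the study. HG versus NG is the comparison for high glucose, and si-FGF9 versus NG that for the siRNA against FGF9. HG + OE-FGF9 versus HG is the comparison for added FGF9 in high glucose. Each pair of groups also differs in its handling. NG received a control vector, no vector is named for HG, no non-targeting siRNA is described for si-FGF9, and HG+OE-FGF9 received a viral vector. HG and NG also differ in osmolarity unless NG held mannitol. These factors cannot be told apart here. The comparisons share libraries: the NG libraries are the controls of both comparisons with NG, and the HG libraries also serve as the controls of the last one.

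In HG versus NG the log2 fold change was -6.39 ± 0.20 (SE, 3 libraries against 3) for EGR1, -2.33 ± 0.47 for KLF6, -1.91 ± 0.27 for KLF4, -1.79 ± 0.32 for KLF10 and -1.21 ± 0.27 for NR4A1. EGR2 was at -0.44 ± 0.17 and KLF2 at -0.32 ± 0.24. Each SE rests on the spread in the fit of all 12 libraries, and so is the same for a gene in every comparison. Of the 7 genes, 5 passed the criteria as lower, beside 22.7% of all genes tested, and 6 had HG libraries all below the NG libraries, beside 46.5%. All 7 values were below 0, so that 0 passed as higher and 0 lay wholly above NG, beside 1.65% and 10.7% of all genes. These counts follow from the choice of the genes. The median was -1.79, and that of all genes tested was -0.39. Scaling by the median of ratios and quantile normalization moved the median of all genes to 0.01 and 0.03. Relative to the median of all genes, EGR1 was at -5.99, KLF6 at -1.94, KLF4 at -1.51, KLF10 at -1.39, NR4A1 at -0.82, EGR2 at -0.04 and KLF2 at 0.07. The KLF2 value turned positive under both scalings (0.04 and 0.15), and NR4A1 then missed the fold criterion (-0.75 and -0.59). Without HG replicate 3, KLF6 was at -2.90, KLF10 at -2.19 and NR4A1 at -1.61.

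In si-FGF9 versus NG the log2 fold change was -6.67 ± 0.20 for EGR1, -2.65 ± 0.47 for KLF6, -2.27 ± 0.32 for KLF10, -2.03 ± 0.27 for KLF4, -1.21 ± 0.27 for NR4A1, -1.09 ± 0.17 for EGR2 and -0.72 ± 0.24 for KLF2. Of the 7 genes, 6 passed the criteria as lower, beside 42.2% of all genes, and all 7 had si-FGF9 libraries below every NG library, beside 62.1%. All 7 values were below 0, and 0 passed as higher or lay wholly above NG, beside 5.36% and 14.3%. The median was -2.03 against -0.79 for all genes, which moved to 0.00 and -0.01 under the 2 scalings. Relative to the median of all genes, EGR1 was at -5.88, KLF6 at -1.86, KLF10 at -1.47, KLF4 at -1.23, NR4A1 at -0.41, EGR2 at -0.29 and KLF2 at 0.08. EGR2 and NR4A1 missed the fold criterion under both scalings (-0.78 and -0.63 for EGR2, -0.33 and -0.14 for NR4A1), and KLF2 turned to 0.10 under quantile normalization. With the closest library pairs averaged, NR4A1 kept its value (-1.21) and was not past the criteria. With a pseudocount of 0.1 KLF2 was past them (-1.08) and EGR2 was at -3.28.

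In HG + OE-FGF9 versus HG the genes went in different directions. KLF4 was at 0.85 ± 0.27, NR4A1 at 0.83 ± 0.27, KLF2 at 0.70 ± 0.24 and EGR1 at 0.46 ± 0.20, each with all HG+OE-FGF9 libraries above all HG libraries. KLF6 was at -0.93 ± 0.47, EGR2 at -0.24 ± 0.17 and KLF10 at -0.06 ± 0.32, with overlapping libraries. No value reached 1 in size, so that 0 of the 7 passed the criteria in either direction, beside 2.94% of all genes as higher and 2.67% as lower. The 4 genes wholly above HG stood beside 12.2% of all genes, and 0 lay wholly below HG, beside 9.95%. The median was 0.46 and that of all genes was -0.13. Calls changed with single HG libraries and with the scale. Without HG replicate 3, NR4A1 (1.22) and KLF4 (1.04) passed as higher and KLF10 was at 0.35, and without HG replicate 2, KLF6 passed as lower (-1.43). With all libraries, NR4A1 passed as higher with a pseudocount of 0.1 (1.03), and KLF4 did after median of ratios scaling (1.00). EGR1 in HG+OE-FGF9, at a mean of 1.18 ± 0.01 TPM (SD, n = 3), remained far below its NG mean of 132 ± 1.63 TPM.

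**Figure D2:**
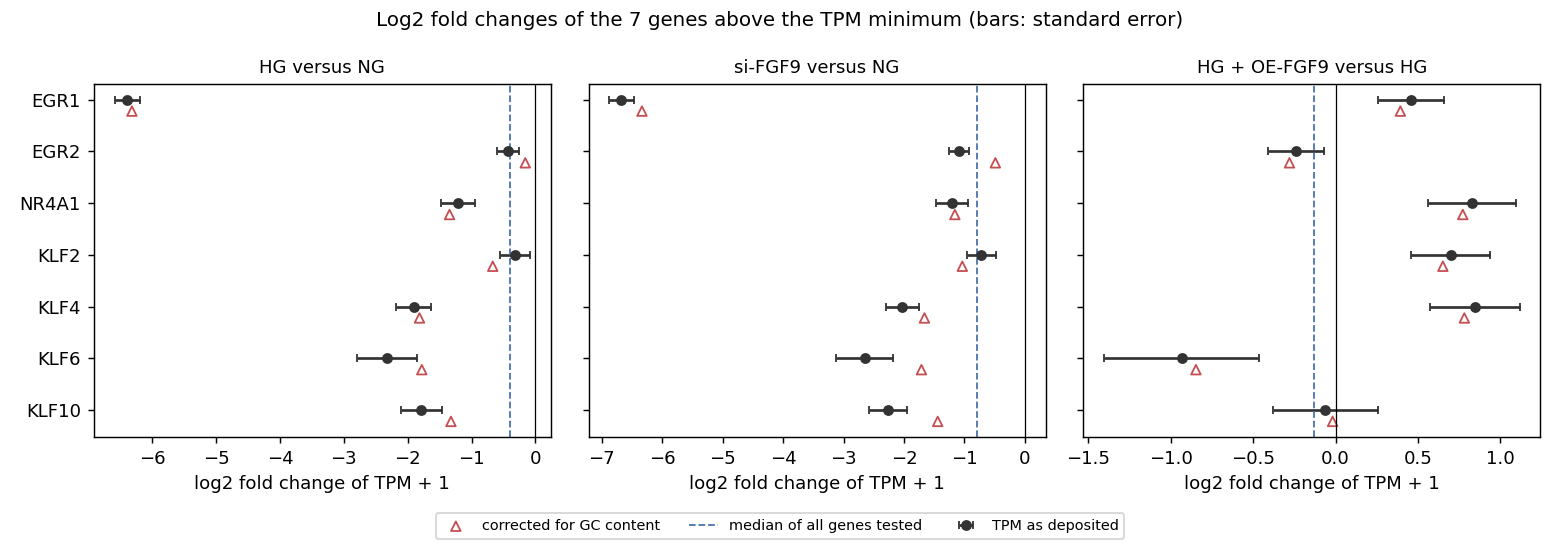
Log2 fold change of TPM + 1 (x axis) of the 7 genes above the TPM minimum (y axis) in the 3 comparisons, each panel with its own scale. Circles are the values from the deposited TPM with bars of 1 standard error, open triangles the values after correction for GC content, and the dashed line the median of all genes tested (-0.39, -0.79 and -0.13). EGR1 lies at -6.39 and -6.67 in the comparisons with NG and at 0.46 in HG + OE-FGF9 versus HG.

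GC content of the transcripts moved with the changes of all genes. In HG versus NG, the median log2 fold change was -1.22 in the decile of lowest GC content and 0.30 in the decile of highest GC content. In si-FGF9 versus NG the same medians were -1.79 and 0.20, and in HG + OE-FGF9 versus HG they were -0.36 and 0.05. The longest transcripts of KLF6 (45.9% GC) and KLF10 (47.2%) lie in decile 5 of the genes tested, that of EGR2 (50.9%) in decile 6, those of KLF4 (55.0%) and EGR1 (55.4%) in decile 8, that of NR4A1 (59.8%) in decile 9 and that of KLF2 (65.2%) in decile 10. After subtraction of the GC trend, HG versus NG gave -6.32 for EGR1, -1.82 for KLF4, -1.78 for KLF6, -1.35 for NR4A1, -1.32 for KLF10, -0.67 for KLF2 and -0.16 for EGR2. The same correction gave -1.71 for KLF6, -1.44 for KLF10 and -0.49 for EGR2 in si-FGF9 versus NG, where EGR2 missed the fold criterion and KLF2 passed it (-1.04). In HG + OE-FGF9 versus HG it gave 0.39 for EGR1, 0.77 for NR4A1, 0.78 for KLF4, 0.65 for KLF2 and -0.85 for KLF6.

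**Figure D3:**
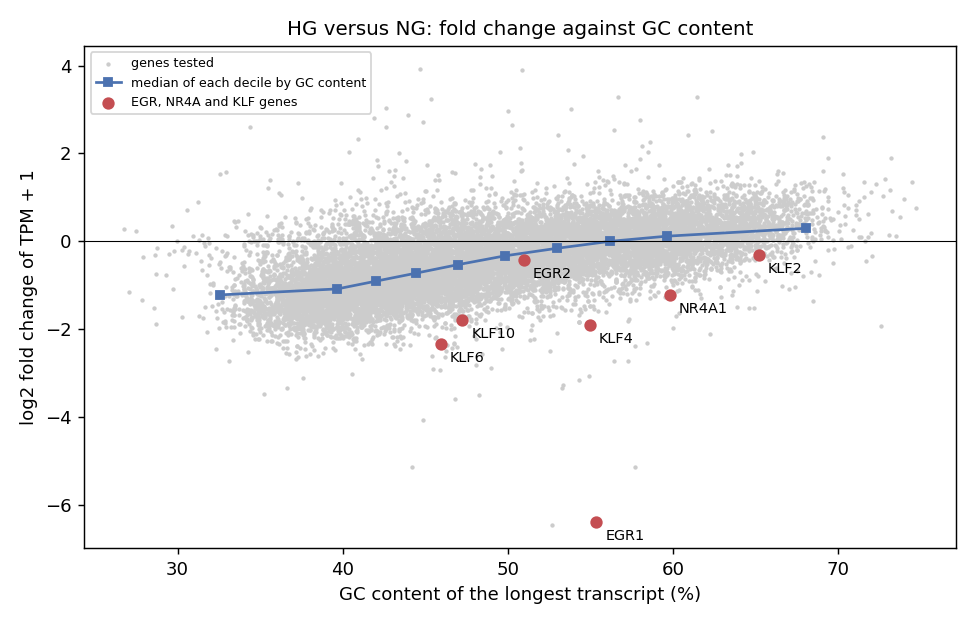
Log2 fold change in HG versus NG (y axis, TPM + 1) against the GC content of the longest transcript in percent (x axis). Grey points are genes tested, squares the median of each decile of genes by GC content, and red points the 7 genes described here. The squares rise from -1.22 to 0.30, and EGR1 lies at -6.39.

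The pathway around these factors was followed in 7 lists of 89 genes, of which 79 were tested. These lists were also chosen with earlier results of these data known. Their counts and p-values are therefore a description and give no independent support. In HG versus NG, 32 of the 79 were lower and 1 was higher, beside the same 22.7% and 1.65% of all genes. Their median was -0.97. The split depended on the scaling, with 16 lower and 4 higher after median of ratios scaling and 20 and 6 after quantile normalization, when 8.27% and 8.33% of all genes were lower and 7.43% and 6.94% higher. After GC correction 13 were lower and 0 higher, beside 3.06% and 3.78%. The fibroblast markers moved in the same direction as these genes, with a summed TPM of 62.3 to 89.2 in NG against 17.2 to 40.9 in HG, 11.6 to 21.0 in si-FGF9 and 11.5 to 22.5 in HG+OE-FGF9. LUM held most of it, COL3A1 stayed at or below 0.07 TPM, and the part of these markers in the results was not tested.

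By list in HG versus NG, 12 of 22 other early response genes were lower, as were 3 of 6 AU-rich element binding proteins, 4 of 8 other family members, 3 of 7 partners and co-repressors, 4 of 13 upstream DNA-binding factors, 3 of 13 ERK and ERK5 kinases and 3 of 10 textbook target genes. Of all genes tested, 22.7% were lower, a share near that of the kinases. The gene with the largest change was ZFP36, the protein that destroys AU-rich early response mRNA, at -2.72 ± 0.52 (adjusted p = 0.00195, limma with Benjamini-Hochberg adjustment over all genes tested, as for all adjusted p below). ATF3, a stress-induced bZIP factor, fell by 2.33 ± 0.29 (adjusted p = 0.000588) from 85.47, 64.50 and 66.00 TPM in NG to 13.30, 8.29 and 21.63 TPM in HG. SOCS3, the inhibitor of JAK signalling, was at -1.97, MCL1, a survival factor of the BCL2 family, at -1.94, and SGK1, the serum and glucocorticoid regulated kinase, at -1.94. ELK4, a partner of SRF at CArG boxes, was at -1.93 (adjusted p = 0.0026). After GC correction SGK1 (-0.98) and ELK4 (-0.84) missed the fold criterion. ENG, the endoglin receptor, was the gene called higher, at 1.05 ± 0.32 (adjusted p = 0.0163), from 1.12, 1.25 and 1.50 TPM in NG to 4.81, 6.03 and 1.61 TPM in HG, and it was no longer called when any 1 of 5 libraries was left out, all but HG replicate 3.

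In si-FGF9 versus NG, 47 of the 79 were lower and 2 were higher, beside 42.2% and 5.36% of all genes, with a median of -1.25. After median of ratios scaling the split was 17 lower and 13 higher, beside 17.5% and 19.2% of all genes, and after quantile normalization 22 and 13, beside 17.1% and 16.2%. After GC correction it was 30 and 2, beside 12% and 12.3%. By list, 17 of 22 other early response genes, 5 of 6 AU-rich element binding proteins, 4 of 8 other family members, 4 of 7 partners and co-repressors, 5 of 13 upstream factors, 6 of 13 kinases and 6 of 10 target genes were lower. Among the other family members called lower, KLF12 reached the TPM minimum only through NG, so that a difference was built into its selection. CCN2, the matricellular protein also known as CTGF, fell by 4.09 ± 0.27 (adjusted p = 2.47e-06), from 173.26, 144.95 and 146.42 TPM to 8.25, 6.85 and 9.53 TPM. SOCS3 was at -3.67, F3, the tissue factor that EGR1 is known to activate, at -3.65, ATF3 at -3.29, SGK1 at -3.06 and RPS6KA3, a kinase downstream of ERK, at -2.83. After GC correction F3 was at -2.45, ATF3 at -2.43, SGK1 at -1.58 and RPS6KA3 at -1.27. The 2 genes that were higher are kinases of the ERK cascade, MAP2K2 at 1.80 ± 0.14 (adjusted p = 4.63e-06) and ARAF at 1.37 ± 0.23 (adjusted p = 0.000209).

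In HG + OE-FGF9 versus HG, 2 of the 79 were lower and 4 were higher, beside 2.67% and 2.94% of all genes. ARC, a neuronal early response gene and textbook target of SRF and MEF2 factors, was at 0.08, 0 and 0.06 TPM in HG and at 3.71, 3.43 and 2.60 TPM in HG+OE-FGF9, a log2 fold change of 2.01 ± 0.15. It reached the TPM minimum only through HG+OE-FGF9, so that a difference was built into its selection and its call supports nothing. In NG it was at 0.29 to 0.46 TPM. ATF3 rose by 1.94 ± 0.29 (adjusted p = 0.00246), to 61.28, 63.53 and 41.55 TPM. CDKN1A, the cell cycle inhibitor p21 and a textbook target of KLF4 and KLF6, rose by 1.51 ± 0.23 (adjusted p = 0.00286), from 16.62, 18.27 and 35.17 TPM to 68.68, 69.73 and 56.58 TPM. KLF3, a repressor of the same family, named after its values were seen, was the other gene called higher, at 1.41 ± 0.38 (adjusted p = 0.04), with overlapping libraries of 2.33, 2.13 and 8.55 TPM in HG and 14.46, 13.72 and 7.15 TPM in HG+OE-FGF9. F3 fell by 2.51 ± 0.51 (adjusted p = 0.0111), from 41.07, 24.18 and 6.63 TPM to 1.59, 1.84 and 5.00 TPM, and was at -3.20 without HG replicate 3. SOCS3 fell by 1.76 ± 0.31 (adjusted p = 0.00598). Without HG replicate 2, 4 genes of the lists were lower, and without HG replicate 3, 6 were higher. The shares of all genes called were not computed with a library left out, so these counts cannot be read against them. The leukocyte markers summed to 120 to 127 TPM in HG and 160 to 163 TPM in HG+OE-FGF9, of which CD68 held most, and PTPRC and CD3E stayed under 1 TPM, so that the list moved with this comparison through CD68. Its part in the result was not tested.

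**Figure D4:**
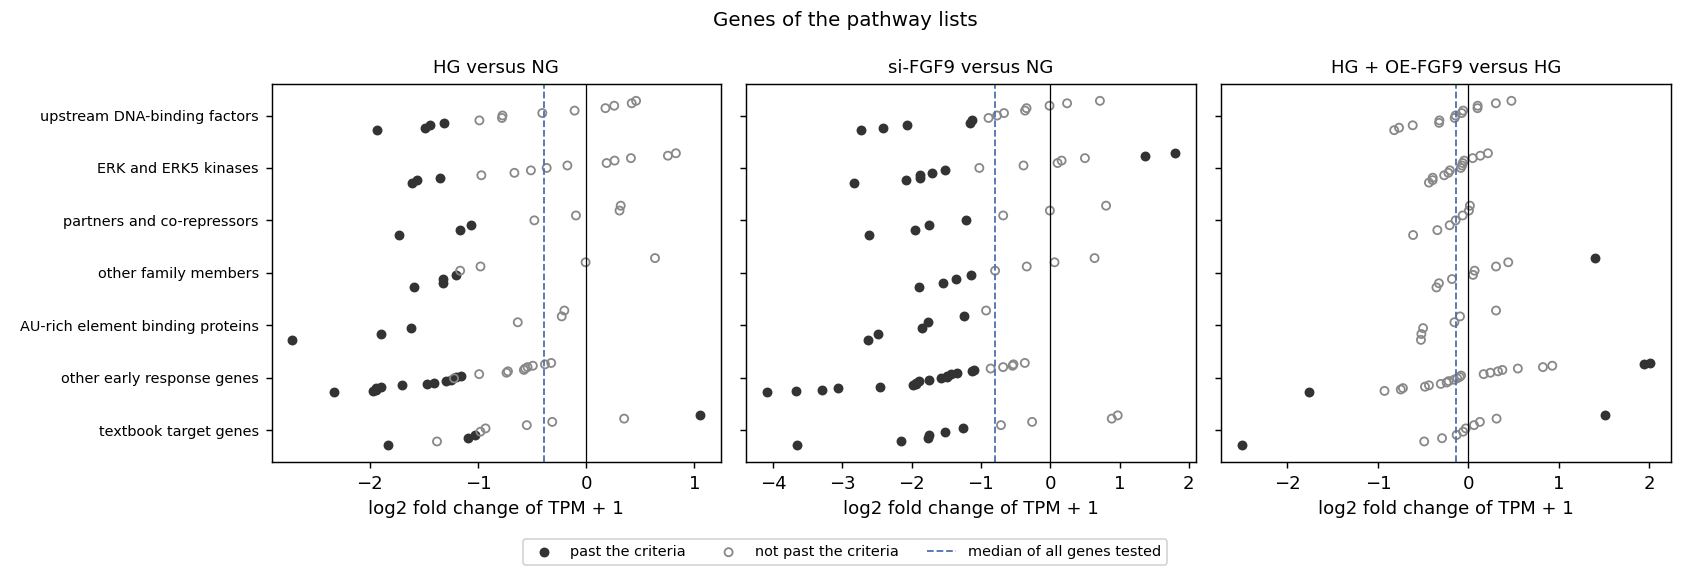
Log2 fold change of TPM + 1 (x axis) of the 79 tested genes of the 7 pathway lists (y axis) in the 3 comparisons, each panel with its own scale. Filled points passed the criteria (log2 fold change of 1 or more, up or down, and p under 0.01), open points did not, and the dashed line is the median of all genes tested. In HG versus NG 32 filled points lie to the left of 0 and 1 to the right, in si-FGF9 versus NG 47 and 2, and in HG + OE-FGF9 versus HG 2 and 4.

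Of the regulators named in any case, SRF itself was at -0.11 ± 0.18 in HG versus NG (adjusted p = 0.65), with 8.13, 10.41 and 10.30 TPM in NG and 9.77, 9.78 and 7.12 TPM in HG. In si-FGF9 versus NG it was at -0.89 ± 0.18 (adjusted p = 0.000729), under the fold criterion, with 4.67, 4.45 and 4.99 TPM. MAPK7, the ERK5 kinase that drives KLF2 and KLF4 in endothelium, was at -0.17 ± 0.37 in HG versus NG (adjusted p = 0.731) and fell by 1.52 ± 0.37 in si-FGF9 versus NG (adjusted p = 0.00299). NAB1, a co-repressor that binds EGR1, was lower in these comparisons, at -1.73 ± 0.38 (adjusted p = 0.00379) and -2.61 ± 0.38 (adjusted p = 8.32e-05), and missed the fold criterion after GC correction in HG versus NG (-0.69). NAB2, the related co-repressor whose gene EGR1 induces, was at -0.09 ± 0.18 (adjusted p = 0.705) and -0.68 ± 0.18 (adjusted p = 0.00578). In HG + OE-FGF9 versus HG the 4 genes lay between -0.61 and 0.10, with adjusted p from 0.241 to 0.722.

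The genes with the profile nearest to each of 4 factors were found by the mean absolute difference of log2(TPM + 1), less the NG mean of each gene, over the 9 libraries outside NG. Nearest to EGR1 were FOS, an early response gene of the AP-1 family (difference 1.02), ITGB1P1, an integrin pseudogene (1.18), and FOSB, the related AP-1 gene (1.57). FOS had means of 259.6 TPM in NG and 2.84, 4.62 and 6.30 TPM in HG, si-FGF9 and HG+OE-FGF9, and FOSB of 62.6 TPM and 0.78, 0.54 and 3.55 TPM. ITGB1P1 was at 37.3 TPM in NG and listed at 0 elsewhere, and as a copy of ITGB1 its value is uncertain. It reached the TPM minimum only through NG, so that a difference was built into its selection and its nearness to EGR1 supports nothing. The differences for the other 3 factors were smaller. Nearest to NR4A1 were NIBAN1 (0.12), SPX (0.14) and MAFG (0.18), nearest to KLF6 were CPD (0.12), RECQL (0.13) and YOD1 (0.16), and nearest to KLF10 were PIGA (0.10), NAA25 (0.11) and STYX (0.13).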

How the data were processed

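RNA of HK2 cells was sequenced in 12 libraries, and groups were taken from the sample labels. The authors deposited TPM per Ensembl gene identifier, given to 2 decimals. The submitters' processing notes name Bowtie 0.12.2 and the build mm8, a mouse build, without their role, and how the TPM of these human cells were made is not given in the sources used here. Depth is therefore unknown, and precision was judged from the spread within the groups of 3 libraries.

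The 10 genes and all lists were chosen with earlier results of these data known. Of 62703 identifiers, 62625 matched the annotation and 42300 had a symbol. limma 3.58.1 in R 4.3.3 was fitted to log2(TPM + 1) of the 14639 genes whose TPM reached 1 in at least 3 libraries. All 12 libraries entered, with the group as the only term and a variance trend. The tests were planned for TPM. Adjusted p are Benjamini-Hochberg values over all genes tested, and p-values measure only the spread between these libraries.

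GC content was taken from the longest transcript, for 96.9% of the genes tested, and removed per library by a natural spline with 5 degrees of freedom. Promoters were matched by symbol to RefSeq. Windows of the 10 genes on chromosome 8, where EGR3 and KLF10 lie, were left out before the search. This left windows for EGR1, EGR2, KLF2, KLF4, KLF6, NR4A1 and NR4A3. Windows of KLF6 and the others are not printed.

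Named genes are the 10 genes, up to 6 pathway genes per direction and comparison with the largest log2 fold change among those past the criteria with an adjusted p under 0.05 and no overlap, NAB1, NAB2, SRF and MAPK7, and 3 nearest profiles for EGR1, NR4A1, KLF6 and KLF10, with a mean TPM of at least 1.

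Alternatives were a pseudocount of 0.1, no filter or a TPM of 1 in all 12 libraries, the 6 libraries of a comparison, a replicate block, other p thresholds, 2 scalings, TPM without mitochondrial and small RNAs, GC correction, and each library left out. Averaging the closest library pairs was chosen after seeing the data.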

Additional observations from a re-analysis of the deposited data

How the results depend on the processing

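Under the settings that kept all libraries, 4 called genes of the pathway lists changed sign, all after GC correction in si-FGF9 versus NG: CREB1 (-1.15 to 0.49), MEF2C (-1.13 to 0.49), KLF12 (-1.15 to 0.48) and BTG1 (-1.10 to 0.53). These 4 genes were named after their values were seen. KLF12 reached the TPM minimum only through NG, so that a difference was built into its selection. The median log2 fold change of the EGR, NR4A and KLF genes, -1.79 in HG versus NG, was -0.96 without a filter (10 genes) and -1.26 after median of ratios scaling. Moves smaller than the SD of the library medians in the compared groups are otherwise not listed. In HG versus NG they include -1.35 after GC correction and -1.47 after quantile normalization. In si-FGF9 versus NG (-2.03) it was -1.15 without a filter, -1.05 after median of ratios scaling, -1.15 after quantile normalization and -1.44 after GC correction. In HG + OE-FGF9 versus HG (0.46) it was 0.93 with a pseudocount of 0.1. Without a filter it was lower than 0.46, a move smaller than that SD. EGR3, NR4A2 and NR4A3 then enter, and their TPM hardly differ here. Their means were 0.01, 0.21 and 0.16 TPM in HG and 0.06, 0.22 and 0.09 TPM in HG+OE-FGF9. In that comparison 1 of the genes was called higher, rather than 0, with a pseudocount of 0.1 and after median of ratios scaling. Leaving out each library gave 0 to 2 called higher, with 2 without HG replicate 3, and 0 to 1 called lower, with 1 without HG replicate 2. No share of all genes was computed beside these counts.

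The number of pathway genes lower in HG versus NG (32) was 16, 20 and 13 after median of ratios scaling, quantile normalization and GC correction. The 1 gene called higher became 4, 6 and 0 under the same settings, 0 with averaged library pairs, 0 with only the 6 libraries of the comparison, and 0 to 2 when a library was left out. In si-FGF9 versus NG the 47 lower became 17, 22 and 30, and the 2 higher became 13 after both scalings. In HG + OE-FGF9 versus HG the 2 lower became 2 to 4 when a library was left out, with 4 without HG replicate 2, and the 4 higher became 3 to 6, with 6 without HG replicate 3. Of the pathway genes named by rule, the signs that turned were of values that had not been called: CDKN1A in si-FGF9 versus NG (-0.26) was 0.76 after median of ratios scaling and 0.39 after quantile normalization, and in HG + OE-FGF9 versus HG ZFP36 (-0.52) ranged from -1.01 to 0.21 and MCL1 (-0.30) from -0.65 to 0.13 when a library was left out, both positive without HG replicate 3. The cause of these moves was not tested. Shares of all genes were not computed with a library left out, so the counts from those settings have none beside them.

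The labels do not say whether replicate numbers pair the libraries. The deviations of same-numbered libraries correlated between -0.16 and 0.25. Those of differently numbered libraries were not computed, so these values cannot decide it. With the replicate number as a block, 0 rather than 1 pathway gene was higher in HG versus NG, and no other count changed. TPM hold no depth, so that values under 1 TPM have unknown counting error. This covers EGR3 and NR4A3, and NR4A2 except in NG replicate 1 (1.32 TPM). It also covers EGR1 in HG and si-FGF9, EGR2 outside NG, and KLF2 in si-FGF9 replicates 1 and 2 (0.97 and 0.99 TPM).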
